A study of Mus musculus with 6 samples.

Results

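The expression of 10 genes of the S100 family was followed in the corneal epithelium of mice that lost the NF-κB subunit RelA in keratin 14-expressing cells. They comprise the alarmin genes *S100a8* and *S100a9* and 8 S100 genes found in epithelia, *S100a3*, *S100a4*, *S100a6*, *S100a10*, *S100a11*, *S100a13*, *S100a14* and *S100a16*, and make up 10 of the 17554 genes of the deposited table. The 10 genes were chosen by their symbols with their measured values in these samples already known, so that their differences between the genotypes, and the calls among them, are given as a description that supports nothing further. Bulk RNA-seq, which pools the transcripts of every cell type present, was made from the corneal epithelial layer of C57BL/6 mice at 2 months of age, with 3 control samples that the labels give as WT and 3 mutant samples that they give as Rela-/-. The mutant mice carried *Krt14-Cre* and 2 floxed *Rela* alleles (*Krt14-Cre* with *Rela* f/f), so that recombination occurs in every tissue that uses the keratin 14 promoter, the conjunctiva and skin included, and the sources used here do not say whether the controls carried floxed alleles or the Cre. Nothing in the labels says whether a sample is 1 mouse or a pool, and each was taken as 1 sample of its genotype.

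S100 proteins are small calcium-binding proteins of the EF-hand type that work mostly as dimers. *S100a8* and *S100a9* encode the subunits of calprotectin, which binds zinc and manganese, is stored in large amounts in the cytosol of neutrophils, and is also made by keratinocytes and other surface epithelia under stress. Released calprotectin can signal through Toll-like receptor 4 and through RAGE, the receptor encoded by *Ager*, and is therefore called an alarmin. Most of the other S100 proteins act inside the cell, by binding annexins, cytoskeletal proteins or regulators of protein turnover. In the functional annotation of the deposited table all 10 genes carried the term for calcium ion binding, which 662 genes of the table (3.77%) carry. Zinc ion binding was listed for 5 of the 10 (*S100a3*, *S100a6*, *S100a8*, *S100a9* and *S100a13*), and binding to RAGE for 4 of them (*S100a4*, *S100a8*, *S100a9* and *S100a13*) out of 8 genes in the table. Binding to Toll-like receptor 4 and membership in the IL-17 signalling pathway were listed for *S100a8* and *S100a9* and for none of the other 8.

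The total of the expected counts, the read counts that RSEM assigns to genes, was between 19492942 and 19733834 per sample, and the 3 counts below which a gene was not taken as detected were worth 0.152 to 0.154 CPM. Levels are given as FPKM, which take account of transcript length and of sequencing depth, and fold changes as log2 values with their standard error (SE) from the quasi-likelihood test of edgeR on the counts, always mutant against control. The test covered 12667 genes that passed a filter on low counts, all 10 S100 genes among them. *Rela* had an FPKM of 33.4 to 36.5 in control mice and of 4.93 to 5.72 in mutant mice. Corneal keratin 12 (*Krt12*) lay between 17005 and 21194 in all 6 samples, which fits the labelled tissue. Of the 9 listed corneal epithelial markers, 3 were called higher in mutant mice and 1 lower at an adjusted p under 0.05. Among all genes tested 7.82% were called higher and 5.42% lower. Higher were *Krt14* (log2 fold change 3.32, SE 0.18), *Clu* (1.23, SE 0.102) and *Epcam* (0.30, SE 0.075), and lower was *Aldh3a1* (-0.25, SE 0.072). *Krt14* had an FPKM of 149.81 to 203.03 in control mice and of 1474.44 to 2203.6 in mutant mice.

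All 10 genes lie on chromosome 3 (coordinates of GRCm38 throughout), 8 of them at or before *S100a9* and the other two, *S100a11* and *S100a10*, 2.82 Mb beyond it. The start regions of the genes that differed most in the samples are shown because the mutation removed a transcription factor, and letters found in them can be read against the values that follow. Each is the RefSeq sequence of GRCm38.p6 for the 250 bases before the annotated start, 5′ to 3′ on the strand of the gene, with capitals for a match to one of 3 motifs searched on both strands: GGG, any 2 bases, TT, any base and CC for NF-κB, TGANTCA for AP-1 and TTGCNNAA for C/EBP.
S100a8 upstream, chr3:90668821-90669070 (plus strand): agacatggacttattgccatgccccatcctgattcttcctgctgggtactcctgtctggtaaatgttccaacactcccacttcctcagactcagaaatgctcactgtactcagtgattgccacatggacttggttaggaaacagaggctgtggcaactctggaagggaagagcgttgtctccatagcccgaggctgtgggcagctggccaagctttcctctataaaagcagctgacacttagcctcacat
S100a9 upstream, chr3:90695722-90695971 (minus strand): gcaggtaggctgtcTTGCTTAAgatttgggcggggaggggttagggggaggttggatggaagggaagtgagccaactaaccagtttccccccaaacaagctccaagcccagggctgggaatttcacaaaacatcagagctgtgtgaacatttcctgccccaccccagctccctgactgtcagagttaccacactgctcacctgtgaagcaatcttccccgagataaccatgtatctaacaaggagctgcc
S100a4 upstream, chr3:90603520-90603769 (plus strand): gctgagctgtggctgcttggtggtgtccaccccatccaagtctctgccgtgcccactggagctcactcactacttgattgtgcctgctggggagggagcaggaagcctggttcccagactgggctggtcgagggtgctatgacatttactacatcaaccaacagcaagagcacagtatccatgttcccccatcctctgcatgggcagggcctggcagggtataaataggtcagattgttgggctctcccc
S100a11 upstream, chr3:93520246-93520495 (plus strand): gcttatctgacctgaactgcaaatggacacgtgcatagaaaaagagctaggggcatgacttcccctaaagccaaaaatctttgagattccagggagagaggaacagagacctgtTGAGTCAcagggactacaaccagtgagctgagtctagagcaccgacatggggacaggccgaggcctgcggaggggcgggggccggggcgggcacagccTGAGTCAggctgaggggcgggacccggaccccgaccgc
Within 250 bases before and 50 after the start, no match to any of the 3 motifs stood in the entries of *S100a8*, *S100a4*, *S100a3*, *S100a6* and *S100a13*. The C/EBP letters TTGCTTAA stood 236 bases before the start of *S100a9*, and the AP-1 letters TGAGTCA stood 136 and 38 bases before that of *S100a11*. Of the entries of *S100a16*, one held the NF-κB letters GGGGGTTGCC and the other the AP-1 letters TGAATCA. Among all 32851 promoter entries of the same length, 4.8% held the NF-κB letters, 7.8% the AP-1 letters and 10.8% the C/EBP letters, and a match is a description of the letters, not of binding. Entries were found for 8 of the 10 genes, without *S100a10* and *S100a14*.

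The alarmin genes were barely read in control mice and strongly read in every mutant sample. *S100a8* (gene 20201, chr3:90669071-90678281, plus strand) had an FPKM of 0.14, 0 and 0.28 in control samples 1 to 3 and of 263.62, 49.38 and 31.96 in mutant samples 1 to 3. These values rest on 1, 0 and 2 counts in the control mice, so that *S100a8* was not detected by that limit in any of them, and on 1858, 349 and 228 counts in the mutant mice. From the summed counts its level was 810 times that of the controls, with a 95% counting interval of 277 to 3930 that covers counting error only, since PCR copies are not independent molecules. *S100a9* (gene 20202, chr3:90692630-90695721, minus strand) had an FPKM of 2.98, 3.42 and 6.51 in control mice and of 1400.66, 273.39 and 201.32 in mutant mice, from 29 to 63 and from 1966 to 13515 counts. Its log2 fold change was 7.18 (SE 0.881), and no mutant value of either gene overlapped the control values. The samples are bulk, so more cells that make a transcript and more transcript per cell cannot be told apart.

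Mutant sample 1 stood apart from the other mutant samples in both alarmins. *S100a8* was 5.34 and 8.25 times higher in it than in mutant samples 2 and 3, and *S100a9* was 5.12 and 6.96 times higher. Between mutant samples 2 and 3 the ratios were 1.55 for *S100a8* and 1.36 for *S100a9*. Without mutant sample 1 the summed counts of *S100a8* were 287 times those of the controls (95% counting interval 97.8 to 1400), and those of *S100a9* 55.1 times (46.1 to 66.4), so the size of both differences moved by more than 1.5 times with this sample while their direction did not change. None of the other 8 S100 genes had such a gap among the mutant samples.

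The subunits kept a narrow proportion among mutant samples although their level differed several times. *S100a8* made up 15.84%, 15.3% and 13.7% of the summed FPKM of the pair in mutant samples 1 to 3. In control mice the share was 4.49%, 0% and 4.12%, on 1, 0 and 2 counts of *S100a8*. Over the control samples 3 counts were of *S100a8* and 125 of *S100a9*, so that *S100a8* held 2.34% of the pair (exact Clopper-Pearson 95% interval 0.486% to 6.7%), against 11.8% over the mutant mice (11.4% to 12.3%). These intervals pool the samples and cover counting error only, and mutant sample 3, with 10.4% of its counts, lay outside the pooled one. The mean shares by FPKM were 2.87% ± 2.49 and 14.95% ± 1.11 (SD, n = 3 each), a difference of 12.08 percentage points. An exact two-sided permutation test gave p = 0.1, the smallest it can give with 3 against 3 samples, so it cannot decide whether the shares differ.

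*S100a4* and *S100a11* were the other S100 genes of the 10 whose mutant values all lay above the control values. *S100a4* (gene 20198, chr3:90603770-90606045, plus strand), whose protein binds non-muscle myosin and is widely used as a marker of fibroblasts under the name FSP1, had an FPKM of 3.21, 2.13 and 3.38 in control mice and of 10.18, 9.92 and 12.29 in mutant mice. Its log2 fold change was 1.78 (SE 0.217), and unlike the alarmins it was even among the mutant samples and did not follow mutant sample 1. The exons of *S100a4* overlap those of other genes over 51.7% of their bases, so reads there cannot be assigned to one gene with certainty. The largest overlap is with *Gm42674*, a coding gene on the same strand.

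*S100a11* (gene 20195, chr3:93520496-93526288, plus strand), which encodes an annexin A1-binding protein of keratinocytes, was the highest of the 10 genes in every sample. It had an FPKM of 2556.19, 2088.27 and 2433.96 in control mice and of 2810.11, 3817.96 and 3283.63 in mutant mice, with a log2 fold change of 0.48 (SE 0.121). Here mutant sample 1 had the lowest of the mutant values. Its call at an adjusted p under 0.05 was lost in 7 of 13 alternative analyses, in all of which the log2 fold change stayed between 0.36 and 0.58. Of the 50-base windows of its transcripts, 41.13% also occur in transcripts of other genes, with the most matches in *Gm12854*.

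**Figure D1:**
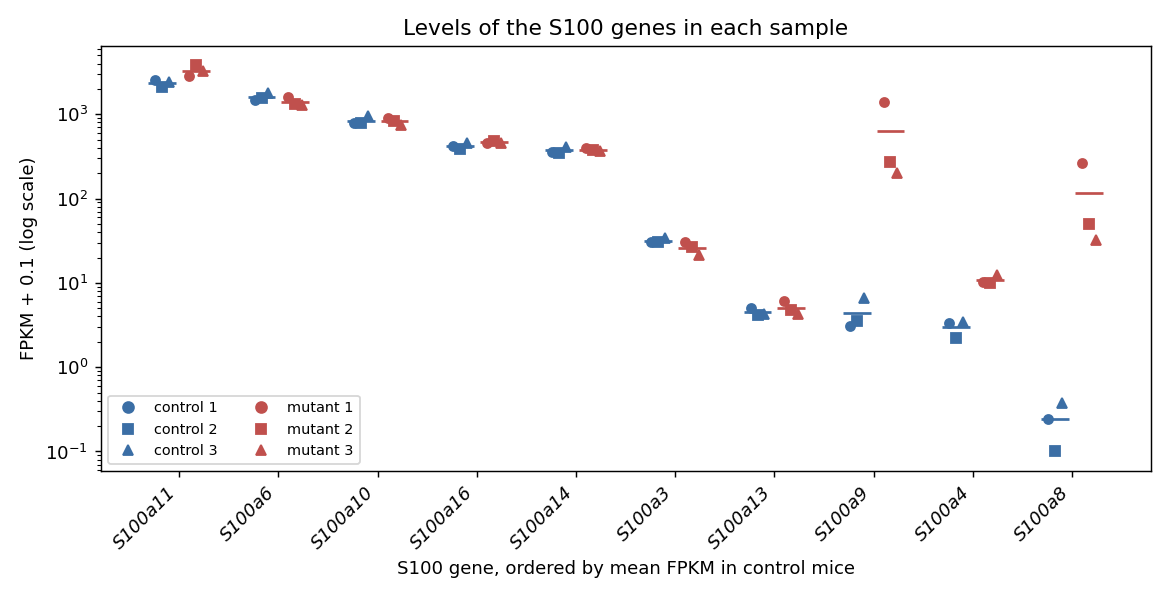
FPKM + 0.1 on a log axis for each of the 10 S100 genes in each of the 6 samples, with control mice in blue, mutant mice in red, a marker shape for each sample number and a line at each group mean. The red points of *S100a9* (201.32 to 1400.66) and *S100a8* (31.96 to 263.62) lie far above the blue ones (at most 6.51 and 0.28), while the points of *S100a6*, *S100a10*, *S100a14* and *S100a16* overlap between the genotypes.

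The other 6 genes had overlapping groups and log2 fold changes between -0.28 and 0.14. *S100a6* (gene 20200, chr3:90612894-90624297), or calcyclin, had an FPKM of 1483.33, 1554.62 and 1790.5 in control mice and of 1607.59, 1317.31 and 1299.32 in mutant mice, with a log2 fold change of -0.20 (SE 0.114). Its span in the table overlaps that of *S100a7a*, but their annotated exons do not overlap. *S100a10* (gene 20194, chr3:93555068-93564645), the partner of annexin A2 at the plasma membrane, had an FPKM of 783.54, 783.31 and 956.62 in control mice and of 910.89, 832.71 and 750.06 in mutant mice. Its log2 fold change of -0.02 (SE 0.113) was the nearest to 0 of the 10. In neither gene did the genotypes separate.

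*S100a16* (gene 67860, chr3:90537257-90543151) had an FPKM of 424.26, 386.23 and 456.62 in control mice and of 457.12, 476.67 and 456.28 in mutant mice, with a log2 fold change of 0.13 (SE 0.086). For *S100a14* (gene 66166, chr3:90526849-90528837) the FPKM was 353.63, 350.9 and 414.12 in control mice and 401.72, 381.36 and 362.68 in mutant mice, with a log2 fold change of 0.03 (SE 0.095). Both genes are expressed in many stratified epithelia, and their mutant values again overlapped the control values. *S100a3* (gene 20197, chr3:90560356-90602706), known from the hair cuticle, had an FPKM of 30.26, 30.49 and 34.32 in control mice and of 30.77, 26.41 and 21.1 in mutant mice, with a log2 fold change of -0.28 (SE 0.138). *S100a13* (gene 20196, chr3:90512490-90524581), which takes part in the release of FGF1 from cells, was low, at 4.87, 4.09 and 4.16 in control mice and 5.95, 4.67 and 4.21 in mutant mice, with a log2 fold change of 0.14 (SE 0.204). The sign of the difference of *S100a10*, *S100a13* and *S100a14* changed in at least 1 alternative analysis.

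Of the 10 genes, 4 passed an adjusted p of 0.05 (quasi-likelihood test of edgeR, Benjamini-Hochberg adjustment), all of them higher in mutant mice, and they are those just described as not overlapping. Among all genes tested 13.2% passed that threshold, 7.82% being higher and 5.42% lower. *S100a9* and *S100a4* also passed the stricter study thresholds, which ask for an adjusted p no higher than 0.001 together with a 2-fold change, as did 1.37% of the genes tested. Since the 10 genes were chosen with this contrast known, nothing is read from these counts. The share of all genes whose groups do not overlap was not counted. Separation of the groups, here and in the lists below, is therefore a description only. The median log2 fold change was 0.14 over the 10 genes and -0.003 over all genes tested.

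The order of the mean levels changed through the alarmins and through *S100a4*, which passed *S100a13*, while the first 3 genes kept their places by mean. In control mice the mean FPKM fell from *S100a11* (2360) through *S100a6* (1610), *S100a10* (841), *S100a16* (422) and *S100a14* (373) to *S100a3* (31.7), and then to *S100a13* (4.37), *S100a9* (4.30), *S100a4* (2.91) and *S100a8* (0.14). Neighbours in this order whose ranges overlapped were *S100a16* with *S100a14*, *S100a13* with *S100a9*, and *S100a9* with *S100a4*. In mutant mice *S100a9* stood in place 4 by its mean (625, range 201.32 to 1400.66), and *S100a8* in place 7 (115). Within mutant samples 1 to 3 *S100a9* was in places 3, 6 and 6, and *S100a8* in place 7 each time. The range of *S100a9* overlapped those of *S100a6*, *S100a10*, *S100a16*, *S100a14* and *S100a8*. Both alarmin means were raised by mutant sample 1. Among all genes of the table, 8310 had a higher mean than *S100a9* in control mice and 84 in mutant mice, and for *S100a8* these numbers were 12891 and 511. The summed FPKM of the 10 genes was 5203.5 to 6100.5 in control mice and 6422.8 to 7898.6 in mutant mice, or 1.19% to 1.34% and 1.42% to 1.75% of all FPKM. The alarmins were 0.06% to 0.11% of that sum in control mice and 21.07%, 4.49% and 3.63% in mutant samples 1 to 3.

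**Figure D2:**
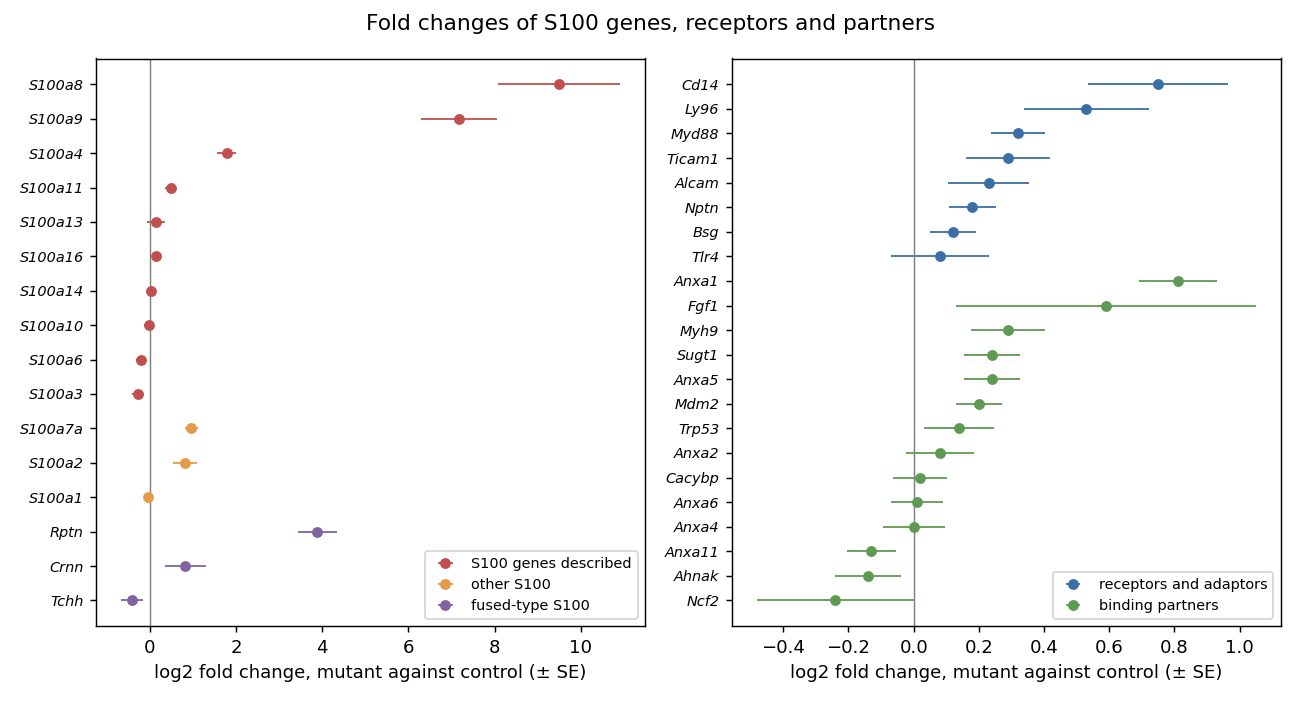
Log2 fold change, mutant against control, with its standard error for the 10 S100 genes and for the tested genes of the lists of other S100, fused-type S100, receptor and binding partner genes, with different horizontal scales left and right. *S100a9* (7.18) and *S100a8* lie apart from all others, the fitted value of *S100a8* depends on the prior count because its controls hold 3 counts in all, and the receptor values lie between 0.08 and 0.75.

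Another 5 S100 genes were in the table, of which 3 passed the filter on low counts. *S100a7a*, the mouse relative of psoriasin, a skin protein first described in psoriasis, rose from an FPKM of 26.01, 21.36 and 34.92 to 53.55, 55.54 and 49.8, with a log2 fold change of 0.96 (SE 0.154, adjusted p = 0.0036 in the edgeR test). It was the only one of the 3 that passed, where 7.82% of all genes tested were called higher. *S100a2* had a log2 fold change of 0.81 (SE 0.286, adjusted p = 0.095) and *S100a1* of -0.04 (SE 0.101, adjusted p = 0.83) in the same edgeR test. *S100b* and *S100z* were too low to test, and *S100a5* was not analysed here. The so-called fused genes, which join an S100 domain to a long repeat and encode cornified envelope proteins, had 3 tested members. Of these 1 was called, as higher, beside 7.82% of all genes tested. This was *Rptn* (repetin), with a log2 fold change of 3.88 (SE 0.453, adjusted p = 0.00063 in the edgeR test). It rose from 6 counts over the control mice to 94 over the mutant mice.

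The receptors and adaptors through which calprotectin can signal moved little beside the alarmins. Of 11 listed genes 8 were tested, and 2 had an adjusted p under 0.05, both higher, where 7.82% of all genes tested were called higher. *Cd14*, a co-receptor of Toll-like receptor 4, had an FPKM of 1.08, 1.06 and 0.93 in control mice and of 2.05, 1.49 and 1.63 in mutant mice, with a log2 fold change of 0.75 (SE 0.215, adjusted p = 0.048 in the edgeR test). *Myd88*, the adaptor that carries the signal inward, rose from 22.57, 19.29 and 20.4 to 26.89, 24.93 and 26.06, with a log2 fold change of 0.32 (SE 0.082, adjusted p = 0.031 in the edgeR test). *Cd14* kept its call in 3 and *Myd88* in 8 of 13 alternative analyses, and without mutant sample 1 both lost it (adjusted p = 0.11 and 0.051 in the edgeR test). The 1 call of the list was then *Ticam1*, an adaptor of Toll-like receptors, named after its values were seen (0.42, adjusted p = 0.015 in the edgeR test). *Tlr4* itself lay between 3.92 and 5.88 in all 6 samples, with a log2 fold change of 0.08 (SE 0.15, adjusted p = 0.76 in the edgeR test), and *Ager* lay between 0.23 and 0.46, too low to test.

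Of 17 listed binding partners of S100 proteins 14 were tested and 1 passed as higher, beside 7.82% of all genes tested. This was *Anxa1*, the annexin that S100a11 binds, which rose from an FPKM of 466.71, 473.33 and 492.43 to 1011.97, 745.33 and 762.39, with a log2 fold change of 0.81 (SE 0.12, adjusted p = 0.0023 in the edgeR test). Mutant sample 1, with the highest alarmin values, also had the highest *Anxa1* value. *Anxa2*, the partner of S100a10, lay between 1614 and 2070.08 in all 6 samples, with a log2 fold change of 0.08 (SE 0.105, adjusted p = 0.68 in the edgeR test). The median log2 fold change was 0.26 over the receptors and 0.11 over the partners, beside -0.003 over all genes tested.

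The 2.82 Mb between *S100a9* and *S100a11* hold the genes of the epidermal differentiation complex, which encode proteins of the cornified envelope of skin. The table has 40 genes there, of which 19 passed the filter on low counts. Of these, 14 passed an adjusted p of 0.05 in the edgeR test, all of them higher in mutant mice, beside 7.82% of all genes tested. The study thresholds were passed by 7, beside 1.37% of all genes tested. *Rptn* and the tested *Sprr* genes other than *Sprr1a* had only a few control counts and passed the filter through the mutant samples alone. Such genes could only be called higher, so nothing is read from the direction of the calls or from their median. With at least 10 counts required in every sample, 6 neighbours were called. That filter removes the genes near 0 in the controls, so the 6 are not out of the 19. The 8 tested *Sprr* genes, which encode small proline-rich proteins, were all among the 14, and so was 1 of 4 tested *Lce* genes. No neighbour was called lower by edgeR, DESeq2 or limma, nor at an unadjusted p under 0.05. The median log2 fold change of the 19 was 3.06, and the 3 largest rises were those of *Sprr1b*, *Sprr2h* and *Sprr3*. *Sprr1b* had 0 counts in every control sample and an FPKM of 322.51, 166.68 and 298.03 in mutant mice, at least 1330-fold higher when each control is set at 3 counts. *Sprr2h* rose to an FPKM of 29.96, 9.84 and 11.42, a ratio of the summed counts of 243 (95% counting interval 82.7 to 1180), and *Sprr3* to 4.71, 2.64 and 3.18, a ratio of 220 (39 to 8710). Of the S100 genes at the ends of this stretch, *S100a9* had a log2 fold change of 7.18 and *S100a11* one of 0.48, and *S100a10*, the next gene beyond *S100a11*, one of -0.02. The expected counts of several *Sprr2* genes are not whole numbers, which happens where a read is divided among similar genes, so their counts are uncertain gene by gene.

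**Figure D3:**
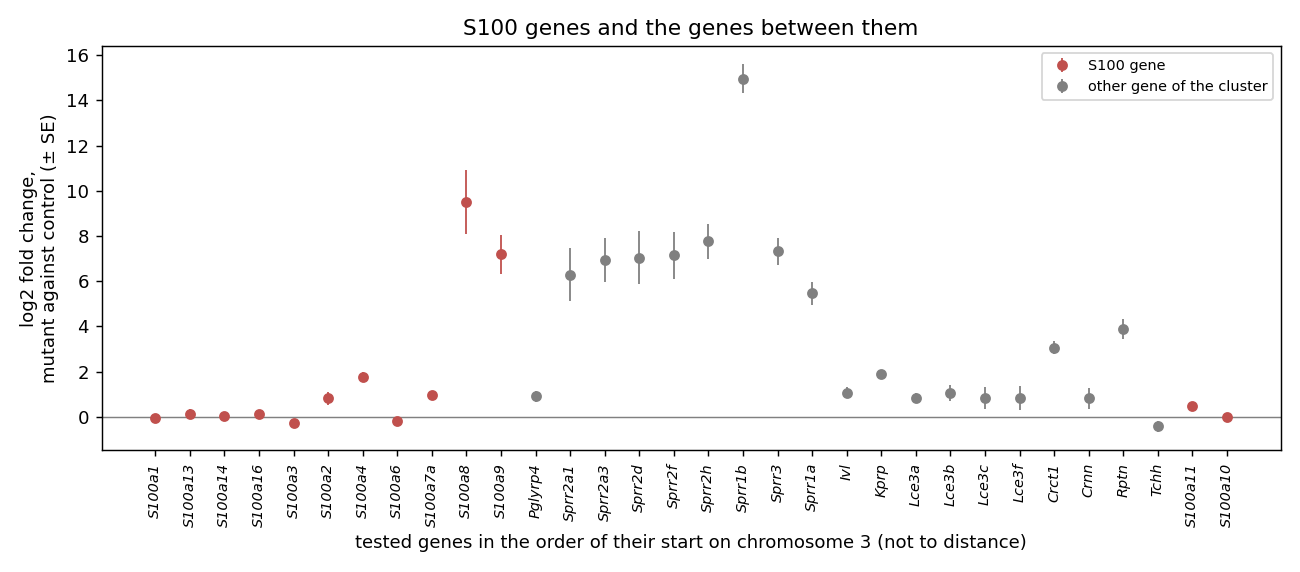
Log2 fold change, mutant against control, with its standard error for each tested S100 gene (red) and each tested gene between them (grey), in the order of their start on chromosome 3 and not to distance. *S100a8*, *S100a9* (7.18) and the *Sprr* genes lie highest, with *S100a8* and *Sprr1b* plotted at fitted values that depend on the prior count because their controls hold 3 and 0 counts in all, *Pglyrp4* between *S100a9* and the *Sprr* genes lies at 0.90, while *S100a13* (0.14) at one end and *S100a10* (-0.02) at the other lie near 0.

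The genes whose profile over the 6 samples was nearest to those of the alarmins were ranked among 12666 other genes. A profile was the log2 CPM of a gene minus its own mean in the control samples. The measure was the root mean square difference between the profile of the gene and that of the alarmin. Nearest to *S100a8* were *S100a9* (0.67), *Dynap* (0.75), *Mmp13* (0.79), *Ppbp* (0.92) and *Sprr2h* (1.09). Nearest to *S100a9* were *Sprr2h* (0.53), *Dynap* (0.55), *Ppbp* (0.55), *Mmp13* (0.67) and *S100a8* (0.67). *Ppbp*, a chemokine gene of platelets, had the same high value of mutant sample 1, with an FPKM of 0.05, 0.1 and 0.05 in control mice and of 34.94, 14.56 and 5.38 in mutant mice. *Mmp13*, which encodes a collagenase, had an FPKM of at most 0.06 in control mice and of 12.39, 6.12 and 6.91 in mutant mice. All of these genes but *S100a9* were near 0 in the controls, where the measure depends on few counts.

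Neutrophils are the classical source of calprotectin, and their markers were therefore read beside the alarmins. Of 12 listed markers 8 were in the table and 6 were tested, of which 0 passed an adjusted p of 0.05 in edgeR, DESeq2 or limma, and 1, *Ly6g*, an unadjusted p under 0.05 in edgeR. *Ly6g* lay at 3.27, 2.21 and 4.12 in control mice and lower, at 1.81, 1.94 and 2.03, in mutant mice, while the granule genes *Mpo* and *Retnlg* were at most 0.09 in every sample. The summed FPKM of the list was 79.73 to 93.58 in control mice and 153.2, 83.99 and 66.69 in mutant samples 1 to 3, so only mutant sample 1 lay above the controls. There *Itgam* had 94.77 against at most 67.15 in the other samples, *Ltf* (lactoferrin) 50.39 against at most 18.43, and *Il1r2* 3.81 against at most 1.94. *Csf3r* (log2 fold change 0.19, SE 0.261) and *Cxcr2* (-0.05, SE 0.148) overlapped between the genotypes and were not highest in mutant sample 1. Most of the sum was *Itgam* in every sample, and without it the list summed to 15.88 to 26.43 in control mice and to 58.43, 19.57 and 15.72 in mutant samples 1 to 3. The part of neutrophil RNA in the alarmin level was not tested in any of the mutant samples.

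Among 12 macrophage and leukocyte markers, 2 were tested and 0 had an adjusted or unadjusted p under 0.05 in the edgeR test, DESeq2 or limma. Their summed FPKM was 17.96 to 22.36 in control mice and 22.99 to 26.57 in mutant mice, nearly all of it *Cd68*, and *Ptprc* (CD45) was at most 0.15 in every sample. Without *Cd68* the sum was 0.52 to 0.88 in control mice and 2.03, 1.15 and 0.88 in mutant samples 1 to 3. *Lyz2* (lysozyme of myeloid cells), too low to test, had an FPKM of 0, 0 and 0.05 in control mice and of 1.17, 0.64 and 0.19 in mutant mice. It did not overlap and was highest in mutant sample 1, as the alarmins were. *Cd163*, also too low to test, went the other way without overlap, from 0.1, 0.06 and 0.1 to 0.04, 0 and 0.04. *Cd68* and *Fcgr1* were higher without overlap, and the remaining markers of the list overlapped between the genotypes. The part of myeloid RNA in the alarmin level was not tested. The 10 stromal keratocyte markers summed to 3.0 to 3.45 in control mice and to 6.19, 4.36 and 2.36 in mutant samples 1 to 3. Of the 3 tested, 2 passed in opposite directions, where 7.82% of all genes tested were called higher and 5.42% lower. *Dcn* (decorin) rose from at most 0.08 to 1.80, 0.96 and 0.39, with a log2 fold change of 4.17 (SE 0.719, adjusted p = 0.0051 in the edgeR test). With 3, 2 and 1 control counts it passed the filter on low counts through the mutant samples alone and could only be called higher. *Pdgfra* fell by 0.78 on the log2 scale (SE 0.133, adjusted p = 0.005 in the edgeR test). In the controls *Pdgfra* made up most of the sum. Without it the other 9 markers summed to 0.66 to 1.05 in control mice and to 4.77, 2.88 and 1.19 in mutant samples 1 to 3, so that every mutant value was above the controls, and *Vim*, *Col1a1* and *Col3a1*, too low to test, were also higher without overlap. *S100a4* is expressed by fibroblasts too, and the part of stromal RNA in its level was not tested. Endothelial markers, all too low to test, summed to 0.04 to 0.15 in control mice and to 0.16 to 0.26 in mutant mice. Of these *Pecam1* was higher without overlap, at 0.03, 0.03 and 0.08 in control mice and 0.13, 0.12 and 0.23 in mutant mice. The other endothelial markers overlapped between the genotypes. The 5 conjunctival markers summed to 1362.17 to 1594.64 in control mice and to 1073.61 to 1191.08 in mutant mice, while the goblet cell genes *Muc5ac* and *Muc5b* were at most 0.01. Of the 3 tested, 1 was called, *Krt13*, with a log2 fold change of -0.45 (SE 0.097, adjusted p = 0.015 in the edgeR test). Among all genes tested 5.42% were called lower.

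**Figure D4:**
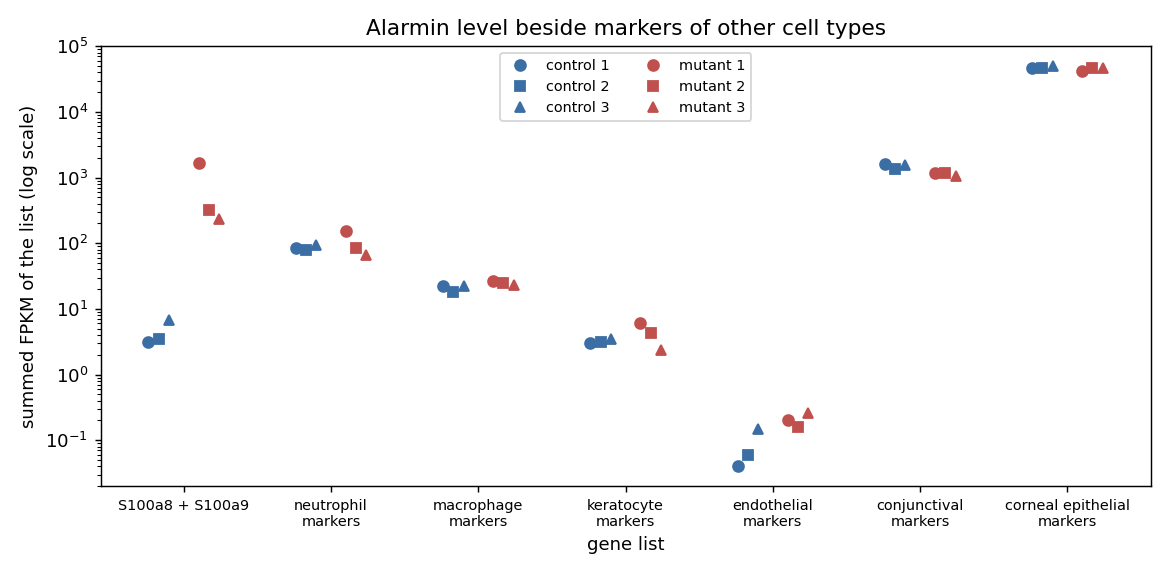
Summed FPKM on a log axis of *S100a8* with *S100a9* and of 6 marker lists in each of the 6 samples, with control mice in blue, mutant mice in red and a marker shape for each sample number. The alarmin sum was 3.12 to 6.79 in control mice and 233.28 to 1664.28 in mutant mice. The neutrophil sum, most of it *Itgam*, was 79.73 to 93.58 in control mice and 153.2, 83.99 and 66.69 in mutant samples 1 to 3. The part of neutrophil RNA in the alarmin sum was not tested.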

How the data were processed

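Per the labels and the paper's methods, the authors removed the corneal epithelium, froze it, extracted RNA, sequenced single-end reads of 50 bases, filtered them with SOAPnuke, aligned them with Bowtie2 2.2.5 and estimated expression with RSEM 1.2.12. The authors deposited, for 17554 genes, expected counts per sample, which need not be whole, and FPKM scaled by transcript length and sample total. Whether counting used strand is not given in the sources used here. The deposited fold change, p-value and q-value columns of the authors' DEGseq comparison were not used. The table's chromosome accessions are those of GRCm38.

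After rounding of the expected counts, the genotypes were compared in edgeR 4.0.16 under R 4.3.3 (TMM scaling, filterByExpr with a minimum count of 10 and total of 15, quasi-likelihood test, Benjamini-Hochberg adjustment over 12667 genes). SE is the absolute log2 fold change divided by the root of F. Totals of 19492942 to 19733834 counts per sample leave counting error small for all but the lowest genes. The p-values measure the spread between samples, and the labels do not state that each is a separate mouse.

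The members and all gene lists were chosen with earlier results of these data known. Named were all 10 members and *Rela*. Of each list the genes past an adjusted p of 0.05 and the genes with a role beside a member were named. Also named were the 3 largest rises among the cluster neighbours (no fall was called) and the 5 genes nearest in profile to each alarmin. Of the cell type lists single markers were named. With 3 against 3 samples an exact permutation test cannot give a two-sided p below 0.1, which is the value that the *S100a8* share gave. Alternatives were DESeq2 1.42.0, upper-quartile scaling, other filters, limma 3.58.1 on log2(FPKM + 1) and log2(FPKM + 0.1), a replicate block, a fold threshold of 1.5 and each sample left out. Overlaps were counted in GENCODE transcripts, and motifs in RefSeq promoters of GRCm38.p6. On simulated data with 191 changed genes among 12511 tested, edgeR called 183 with 7 false calls. The simulation used a fixed spread and a single fold size, and left out genes with few control counts. It therefore does not cover genes such as *S100a8*, or the wide spread of the alarmins among the mutant samples.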

Additional observations from a re-analysis of the deposited data

How the results depend on the processing

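*S100a8* kept an adjusted p under 0.05 in all 12 alternatives that could test it (log2 fold change 6.07 to 10.36). With 1, 0 and 2 control counts it passed the filter on low counts through the mutant samples alone. It could therefore only be called higher, and nothing is read from these calls. *S100a9* (5.77 to 7.62) and *S100a4* (1.60 to 1.94) kept their calls in all 13. *S100a11* kept its direction (0.36 to 0.58) and lost its call in 7 of 13, namely both limma analyses, the replicate block, and without control sample 1, 2 or 3 or mutant sample 2. The other 6 members were called in none.

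The members called numbered 3 or 4 with a sample left out. Genes past the study thresholds numbered 330 with DESeq2 and 114 with limma on log2(FPKM + 1), and 36 to 193 with a sample left out, the lowest without control sample 2. Genes at an adjusted p under 0.05 numbered 857 to 1869 with a sample left out. Of the other S100 genes 2 were called with either limma analysis. Of the receptors 1 was called with DESeq2, upper-quartile scaling, no filter and the replicate block, and 0 to 1 with a sample left out. Of the partners 1 to 2 were called with a sample left out, the 2 (*Anxa1* and *Myh9*) without mutant sample 1. Of the neighbours 6 were called when at least 10 counts were required in every sample. This removes genes near 0 in the controls, so the 6 are not out of the 19 neighbours of the main test. *S100a8* could not be tested with that filter. The share of *S100a8* in the pair differed by 9.24 percentage points from counts, which are not scaled by length, in place of 12.08 from FPKM.

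The replicate numbers come from the labels and mark different samples. Same-numbered samples did not deviate together (correlations of -0.046 to 0.048), so the block is not a paired analysis. With the replicate block 176 genes passed the study thresholds and 1419 an adjusted p under 0.05, with 3 of the 10 members.

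*S100a8* rests on 3 control counts over the group, and the counting interval of its ratio does not hold the spread between the mutant samples.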
